A study of Mus musculus with 6 samples.

Results

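Hbb-bt, the gene of an adult β-globin chain of the mouse, was followed in the sections of this imaging study whose gene panel held a probe for it. The gene was chosen by name, with earlier results of these data known. Of the 6 sections of the study, 4 measured Hbb-bt, as 1 of 98 custom genes added to 379 predesigned ones. Bone marrow of an aged mouse of 89 weeks and a liver at E13.5 were imaged with a larger panel without Hbb-bt, and have no value here.

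The study examined how erythroid cells and macrophages lie together in blood-forming tissues. All mice were wild-type C57BL/6. The sections with Hbb-bt came from the liver of an embryo at embryonic day 14.5 (E14.5 fetal liver, called the fetal liver here), the femur of a mouse 8 days after birth (P8 bone marrow, called the marrow here), the spleen of an untreated adult and the spleen of a mouse given phenylhydrazine (PHZ-treated spleen). Phenylhydrazine (PHZ) destroys circulating red cells, and was injected into the peritoneum at 40 mg/kg, 2 times a day for 2 days. Each section was 5 µm of fixed, paraffin-embedded tissue. In the Xenium assay, probes bind single RNA molecules in place, and each decoded molecule receives a position and a quality score. A segmented cell is the outline of a stained nucleus, expanded outward. Each condition had 1 section, so no comparison between conditions could be tested. Intervals are exact, at 95% confidence, and cover counting error only, and an SD runs over the cells of 1 section.

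Hemoglobin is a tetramer of α-like and β-like globin chains around heme, and β-globin is among the most abundant proteins that a maturing erythroblast makes. Definitive erythroblasts mature in the fetal liver and later in the bone marrow, and in mice also in the spleen under anemia. They then expel the nucleus, and the reticulocyte that remains still carries globin mRNA while it circulates. Slc4a1 encodes band 3, the anion exchanger that anchors the red cell membrane to its skeleton and rises late in erythroblast maturation.

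Hbb-bt lies at chr7:103812524-103813923 on the minus strand of GRCm38.p6, the build of the RefSeq table used here. C57BL/6 mice carry a close copy of it, Hbb-bs, at chr7:103826523-103827928. The panel gave Hbb-bt 1 probe set and Slc4a1 8, and the probe sequences were not analysed here. Transcripts of Hbb-bs may therefore be counted as Hbb-bt, and no level is compared between genes. The 110 bases before the RefSeq start of each copy are shown from 5′ to 3′ to tell these genes apart, from chr7:103813924-103814033 for Hbb-bt and chr7:103827929-103828038 for Hbb-bs. Capitals mark the CACCC element, the CCAAT box and the TATA-like ATATAA on the strand of the gene.
Hbb-bt: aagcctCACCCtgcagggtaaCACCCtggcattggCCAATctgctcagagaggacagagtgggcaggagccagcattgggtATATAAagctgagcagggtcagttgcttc
Hbb-bs: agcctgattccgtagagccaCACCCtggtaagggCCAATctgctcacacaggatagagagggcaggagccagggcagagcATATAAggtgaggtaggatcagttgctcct
CACCC began 104 and 89 bases before the start of Hbb-bt and 90 bases before that of Hbb-bs, so that Hbb-bt has 1 match more. CCAAT began 75 and 76 bases and ATATAA 29 and 30 bases before the start. CCAAT also matched the other strand of Hbb-bt at 80 and 36 bases, and no match overlaps another. Searched on both strands, the CACCC element stood in 29.6%, the CCAAT box in 20.2% and ATATAA in 4.09% of the same 110 bases of 32851 RefSeq promoters. The data hold no measure of the promoters, so this is a description of the sequences alone.

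Cells with at least 5 detected genes were kept, which left 117323 cells in the fetal liver, 50523 in the marrow, 108327 in the untreated spleen and 94492 in the PHZ-treated spleen. Their median depth was 167, 112, 84 and 104 transcripts per cell, in this order. The fetal liver and the marrow shared a slide, the spleens shared another, and all 4 sections were imaged in 1 run. Each pair of sections shared between 1 and 6 cell names. Of the 20 negative control probes, the most abundant gave between 40 and 105 counts in a section, against 89480 to 1408203 counts of Hbb-bt.

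Hbb-bt was found in nearly every cell of the fetal liver, in most cells of the marrow and the PHZ-treated spleen, and in a minority of cells of the untreated spleen. In the fetal liver, 98.75% of the cells held at least 1 Hbb-bt transcript (98.69% to 98.82%). In the marrow, this share was 74.5% (74.1% to 74.8%). In the PHZ-treated spleen it was 72.1% (71.9% to 72.4%), and in the untreated spleen 24.2% (23.95% to 24.46%).

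The count per cell followed the same order. The fetal liver had 12 ± 7.41 Hbb-bt transcripts per cell (mean ± SD over 117323 cells), with a median of 11 and a highest cell of 83. The marrow had 6.16 ± 6.58 (n = 50523 cells), with a median of 4 and a highest cell of 99. The PHZ-treated spleen had 5.43 ± 5.935 (n = 94492 cells), with a median of 4 and a highest cell of 57. The untreated spleen had 0.826 ± 2.34 (n = 108327 cells), with a median of 0 and a highest cell of 61. The means of the marrow and the PHZ-treated spleen lay well within the spread of cells in either section, and the spread between animals was not measured.

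As a share of all gene transcripts in cells, Hbb-bt made up 6.72% in the fetal liver, 4.84% in the marrow, 4.49% in the PHZ-treated spleen and 0.864% in the untreated spleen. When each cell was thinned to 50 transcripts, the expected share of cells with Hbb-bt was 93.1%, 69.1%, 68.9% and 19.1% in this order. Thinning left out between 1.89% and 15.6% of the cells of a section as too shallow. At equal depth, the marrow and the PHZ-treated spleen thus had nearly the same share of cells with Hbb-bt. Both shares cover all tissue in the section. In the marrow, the cartilage genes Acan and Col2a1 were found in 17.15% and 15.1% of cells.

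**Figure D1:**
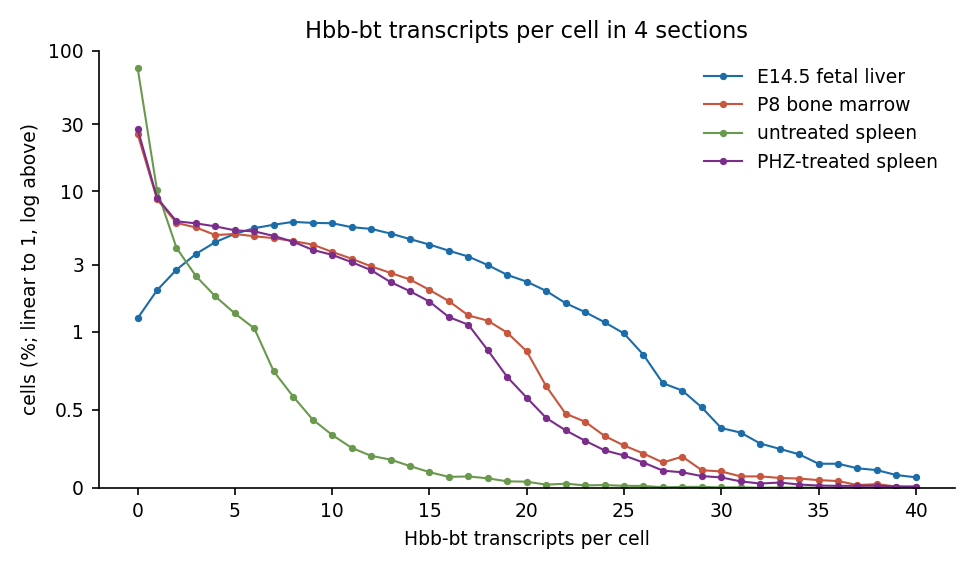
Hbb-bt transcripts per cell, from 0 to 40 on the horizontal axis, against the share of the cells of a section in percent on an axis that is linear up to 1 and logarithmic above. The curve of the fetal liver has its peak away from 0, whereas those of the other 3 sections are highest at 0 and the marrow and the PHZ-treated spleen nearly overlie each other.

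The shape of the distributions differed between tissues. In the fetal liver 57.9% of the cells held 10 or more Hbb-bt transcripts, against 26.4% in the marrow, 22.1% in the PHZ-treated spleen and 1.645% in the untreated spleen. The 10% of cells with the most Hbb-bt held 22.8% of it in the fetal liver, 33.0% in the marrow, 33.7% in the PHZ-treated spleen and 77.8% in the untreated spleen. Most Hbb-bt of the untreated spleen was thus held by 10% of its cells, where 75.8% of the cells held none. The mean over cells with Hbb-bt was 3.41 in that section, against 7.53 to 12.15 in the other sections. The variance of the count was between 4.57 and 7.03 times its mean in the 4 sections.

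Hbb-bt also varied within each section. Over tiles of 200 µm with at least 50 cells, the mean per cell ran from 1.08 to 22.7 in the fetal liver, with a median of 12.1 over 206 tiles. In the marrow it ran from 0 to 14.3, with a median of 2.14 over 186 tiles. In the untreated spleen the range was 0.0199 to 7.43 with a median of 0.501 over 129 tiles, and in the PHZ-treated spleen 0.0852 to 13.1 with a median of 6.67 over 201 tiles. Tile means at the 10th and the 90th percentile were 9.75 and 14.8 in the fetal liver. They were 0.0879 and 10.1 in the marrow, 0.0689 and 3.53 in the untreated spleen, and 1.05 and 9.01 in the PHZ-treated spleen.

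In all 4 sections more Hbb-bt was found in cells with more Slc4a1, and Slc4a1 was the gene most correlated with it in each. Pearson's r over cells, on counts scaled to 5000 of the other genes and log-transformed, was 0.82 in the marrow, 0.76 in the PHZ-treated spleen, 0.57 in the fetal liver and 0.54 in the untreated spleen. These values describe the cells of 1 section each, which share that section's depth and segmentation. Among cells with a count of Slc4a1, r was 0.63 in the marrow, 0.52 in the fetal liver, 0.47 in the PHZ-treated spleen and 0.37 in the untreated spleen, so that the fetal liver and the PHZ-treated spleen changed places. Where the Slc4a1 count was the same and low, the sections differed. At 1 Slc4a1 transcript, the mean of Hbb-bt was 4.24 ± 3.29 in the fetal liver, 2.13 ± 2.40 in the marrow, 2.41 ± 2.77 in the untreated spleen and 2.76 ± 3.30 in the PHZ-treated spleen. The mean of the fetal liver was the highest of the 4 in every bin up to 16 to 19 Slc4a1 transcripts. At 10 to 12 Slc4a1 transcripts, it was 11.9 ± 4.89 in the fetal liver, 10.9 ± 4.09 in the marrow, 10.8 ± 5.02 in the untreated spleen and 10.15 ± 4.305 in the PHZ-treated spleen. At 20 to 24 Slc4a1 transcripts, it was 18.65 ± 6.66, 18.9 ± 5.82, 17.75 ± 4.64 and 17.3 ± 6.03. In these 3 bins, the means of the sections differed by less than the SD among cells of the fetal liver.

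The sections also parted in cells without Slc4a1. Among cells with no Slc4a1 transcript, the mean of Hbb-bt was 2.73 ± 2.76 in the fetal liver (n = 3459 cells), 0.792 ± 1.86 in the PHZ-treated spleen (n = 33202), 0.582 ± 1.29 in the marrow (n = 15806) and 0.340 ± 1.04 in the untreated spleen (n = 96049). Of these cells, 81.0%, 30.85%, 29.1% and 16.9% held Hbb-bt. The order of the marrow and the PHZ-treated spleen thus turned round against their means over all cells. The median depth of the cells without Slc4a1 was 128 transcripts in the fetal liver and 71 in the PHZ-treated spleen. It was 95 in the marrow and 81 in the untreated spleen, and its part in these values was not tested.

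**Figure D2:**
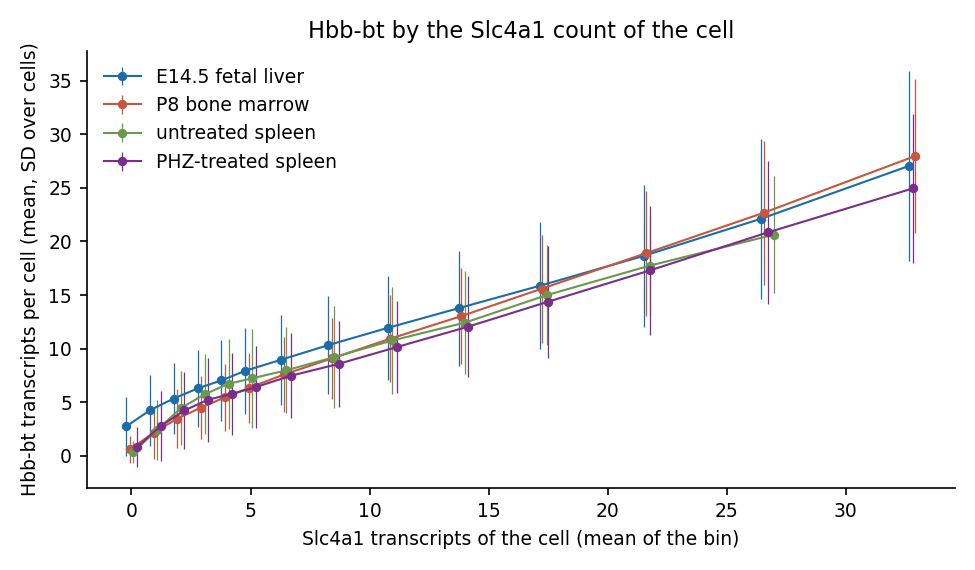
Mean Hbb-bt transcripts per cell on the vertical axis against the Slc4a1 transcripts of the same cell, in bins of at least 50 cells, for the 4 sections. Bars are the SD over the cells of a bin, and points are moved sideways slightly so that they can be told apart. The bars of the 4 lines overlap, and the fetal liver lies highest at low Slc4a1 counts, with a mean of 4.24 at 1 Slc4a1 transcript against 2.13 to 2.76 in the other sections. Cells of the same bin differ in depth between sections.

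The untreated spleen stood apart in how far Hbb-bt went along with Slc4a1. It had 2.37 Hbb-bt transcripts for each of Slc4a1, whereas the ratio was 1.05 in the fetal liver, 1.07 in the marrow and 1.10 in the PHZ-treated spleen. The size of this ratio depends on the probe sets of the genes, so it is read only between sections or between places within a section. In the untreated spleen, 38.0% of the cells with Hbb-bt also held Slc4a1, against 97.6%, 87.8% and 85.0% in the other 3. Cells without Slc4a1 held 36.5% of the Hbb-bt of the untreated spleen, 5.125% of that of the PHZ-treated spleen, 2.95% of that of the marrow and 0.671% of that of the fetal liver. Taken the other way, 81.1% of the cells with Slc4a1 in the untreated spleen held Hbb-bt, and 94.5% to 99.3% in the other sections. The untreated spleen was also the shallowest section, and the part of depth in this difference was not tested.

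The other genes of a fixed erythroid list of 16 were taken by role. Among the genes of the red cell membrane, Slc4a1 had the highest r with Hbb-bt in each section. Rhd, of the Rh blood group antigen, had an r of 0.58 in the marrow and in the PHZ-treated spleen, 0.32 in the fetal liver and 0.25 in the untreated spleen. Slc14a1, a urea transporter, had an r of −0.01 in the fetal liver, 0.34 in the marrow, 0.00 in the untreated spleen and 0.29 in the PHZ-treated spleen.

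Among the genes of heme and iron, Fech, which encodes ferrochelatase, had an r of 0.70 in the marrow, 0.66 in the PHZ-treated spleen, 0.42 in the fetal liver and 0.30 in the untreated spleen. Slc25a37, the mitochondrial iron importer mitoferrin, had an r of 0.73 in the marrow, 0.58 in the PHZ-treated spleen, 0.49 in the fetal liver and 0.18 in the untreated spleen. Tfrc, the transferrin receptor, had 0.59, 0.45, 0.30 and 0.08 in that order. Isca1, of iron-sulfur cluster assembly, had the lowest r of this role in the fetal liver with 0.16 and in the marrow with 0.48, whereas Tfrc had the lowest in both spleens.

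Like every other gene of the list, the 4 regulators and receptor genes had a lower r in the fetal liver than in the PHZ-treated spleen. Cells with 10 or more counts of the erythroid list made up 96.7% and 58.8% of the cells of these sections. The part of this difference in r was not tested. The r of the transcription factor genes Klf1 and Gata1 was 0.15 and 0.11 in the fetal liver and 0.55 and 0.51 in the PHZ-treated spleen. Epor, the erythropoietin receptor, had 0.13 and 0.45, and Hemgn, an erythroid nuclear protein gene, had 0.35 and 0.68. Of the remaining 3 list genes, Selenbp1, a selenium-binding protein gene, was the lowest of the whole list in the PHZ-treated spleen with 0.17 and was below 0 in the fetal liver with −0.13. Ctse, which encodes cathepsin E, had 0.04 in the fetal liver and 0.67 in the marrow. Plek2, which encodes pleckstrin 2, had 0.46 in the PHZ-treated spleen and 0.05 in the untreated spleen.

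Outside the list, Car2, the gene of carbonic anhydrase 2, was among the 5 genes with the highest r in every section, with 0.75 in the marrow, 0.71 in the PHZ-treated spleen, 0.42 in the untreated spleen and 0.38 in the fetal liver. Rsad2 and Prx completed the 5 highest in the untreated spleen, with 0.34 and 0.32. The lowest r were those of Mfap4 with −0.28 and Nnat with −0.25 in the fetal liver, and the cartilage genes Acan with −0.56 and Col2a1 with −0.52 in the marrow. In the spleens they were genes that many immune cells use, namely C3 with −0.16 and Rac2 with −0.15 in the untreated spleen, and Laptm5 with −0.45 and Ctss with −0.44 in the PHZ-treated spleen.

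Cells were then sorted by marker genes, leaving out Hbb-bt. An erythroid-marker cell had at least 10 counts over at least 3 genes of the erythroid list and passed no other list. A cell of another list had at least 5 counts over at least 3 genes of exactly 1 of 13 other lists. These gates describe counts inside an outline, which can cover parts of several cells, and they name no cell type. Other cells use some genes of the erythroid list too, and in the untreated spleen Isca1 was found in 42.4% and Slc25a37 in 36.7% of all cells. Doublets were not called. Erythroid-marker cells held 11.2 ± 6.60 Hbb-bt transcripts in the fetal liver (n = 21547 cells), 9.27 ± 5.31 in the marrow (n = 8048), 7.68 ± 4.84 in the PHZ-treated spleen (n = 20264) and 4.56 ± 4.08 in the untreated spleen (n = 258). Hbb-bt was present in 98.9%, 99.2%, 98.1% and 76.4% of them. In the first 3 sections, nearly all erythroid-marker cells thus held Hbb-bt. Over all cells, the shares in these sections were 98.75%, 74.5% and 72.1%. In the fetal liver, erythroid-marker cells therefore did not stand out from the section, and cells of exactly 1 other list had 98.98%.

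Erythroid-marker cells with a larger nucleus held more Hbb-bt in all sections but the untreated spleen. Its share of their transcripts was lower in the group with the largest nuclei than in that with the smallest in each section. Cells were put in 4 groups of nearly equal size by nucleus area. In the fetal liver the group with the smallest nuclei held 6.79 ± 4.535 Hbb-bt transcripts and that with the largest 15.9 ± 7.06, at 9.07% and 7.84% of all transcripts. In the marrow these groups held 5.64 ± 3.28 and 12.8 ± 5.965, at 9.73% and 8.54%, and in the PHZ-treated spleen 4.71 ± 3.18 and 11.3 ± 5.33, at 7.53% and 6.76%. The share did not fall at each step. From the group with the smallest nuclei to the next it went from 9.07% to 9.17% in the fetal liver, and it was likewise higher in the second group of the marrow. The untreated spleen, with 63 to 65 cells in a group, had 4.55 ± 2.72, 5.33 ± 3.72, 5.46 ± 4.24 and 2.92 ± 4.88 from the smallest to the largest nuclei, at 8.35%, 7.36%, 7.12% and 2.43% of all transcripts. Kit, the stem cell factor receptor of early progenitors, marked cells with a lower share of Hbb-bt. With at least 3 Kit transcripts, Hbb-bt made up 5.59% of the transcripts in the fetal liver (n = 377 cells), 5.48% in the marrow (n = 62) and 4.36% in the PHZ-treated spleen (n = 266). Without Kit, the shares were 8.56%, 9.39% and 7.23%. Cells with at least 3 Kit transcripts were also deeper, at a median of 171, 123 and 150 transcripts against 124, 93 and 97. Their mean Hbb-bt count was 9.88, 6.82 and 6.75, against 11.2, 9.32 and 7.69 without Kit. With 1 or more Kit transcripts, it was 11.3, 8.68 and 7.64. The part of depth in the shares was not tested.

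Hbb-bt was not confined to erythroid-marker cells. These held 17.1% of the in-cell Hbb-bt in the fetal liver, 24.0% in the marrow, 30.3% in the PHZ-treated spleen and 1.315% in the untreated spleen. Cells of exactly 1 other list held 46.0%, 38.0%, 41.3% and 30.6% in this order, and cells that passed several other lists 36.8%, 37.7%, 27.1% and 63.8%. Of Slc4a1, 20.7%, 27.0%, 36.1% and 2.22% lay in erythroid-marker cells. Slc4a1 is itself on the erythroid list that defines these cells and Hbb-bt is not, so the shares of the genes are not like for like. These shares rest on the gate, which leaves out every cell that passes another list. Of the in-cell Hbb-bt, cells with 10 or more erythroid counts held 99.35% in the fetal liver and 94.4% in the marrow. They held 93.1% in the PHZ-treated spleen and 46.7% in the untreated spleen, whatever other list they passed.

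In the fetal liver, cells of most other lists held about as much Hbb-bt as erythroid-marker cells. Hepatocyte-marker cells held 11.7 ± 6.79 (n = 36551 cells), C1q macrophage-marker cells 12.3 ± 7.08 (n = 11509), endothelial-marker cells 11.9 ± 7.08 (n = 2002) and megakaryocyte-marker cells 10.8 ± 7.58 (n = 711). Stromal-marker cells with 10.1 ± 7.33 (n = 3180), neutrophil-marker cells with 9.08 ± 6.80 (n = 1379) and monocyte-marker cells with 7.89 ± 5.41 (n = 152) lay lower, within the spread of cells. Of the cells of exactly 1 other list, 97.3% also had 10 or more counts of the erythroid list, with a median of 69 counts. At 3 to 9 erythroid counts, hepatocyte-marker cells held 2.51 ± 1.88 Hbb-bt transcripts (n = 391) and C1q macrophage-marker cells 3.08 ± 2.11 (n = 249). The liver left 20 cells of another list with no erythroid count at all, with 7 Hbb-bt transcripts between them, which is too few to describe a class.

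In the marrow, the classes differed widely. C1q macrophage-marker cells held 10.95 ± 6.18 Hbb-bt transcripts (n = 3512 cells) and neutrophil-marker cells 6.855 ± 5.72 (n = 8359). Stromal-marker cells held 2.79 ± 5.26 (n = 5879), and Hbb-bt was present in 43.5% of them. Skeletal muscle-marker cells held 0.0982 ± 0.328 (n = 112) with a share of 8.93% (4.365% to 15.8%). Cartilage-marker cells, which lie in tissue without vessels, held 0.0309 ± 0.438 (n = 680), and Hbb-bt was present in 1.62% of them (0.810% to 2.88%). This mean rests largely on 2 cells with 10 or more erythroid counts, which held 12 Hbb-bt transcripts between them. The 517 cells without erythroid counts held 7 in all, the 150 with 1 or 2 counts held 2, and the 11 with 3 to 9 counts held 0. The median depth of the class was 26 transcripts, against 93 in erythroid-marker cells. Cartilage thus gave the lowest share of any class with at least 50 cells in the 4 sections. The count of the erythroid list differed between the marrow classes too. Of the C1q macrophage-marker cells 97.7% had 10 or more erythroid counts, of the neutrophil-marker cells 73.7% and of the stromal-marker cells 23.8%. The share with 10 or more was 0% in skeletal muscle-marker cells and 0.294% in cartilage-marker cells.

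In the spleens, the mean of Hbb-bt was higher after PHZ in each class with at least 50 cells in both. C1q macrophage-marker cells held 1.30 ± 3.05 in the untreated spleen (n = 17867 cells) and 7.71 ± 6.49 in the PHZ-treated spleen (n = 22373). T cell-marker cells held 0.166 ± 0.742 (n = 10009) and 0.849 ± 2.27 (n = 2046), with a share of 8.90% (8.35% to 9.48%) and 23.5% (21.7% to 25.4%) of cells. Endothelial-marker cells held 0.397 ± 1.26 (n = 1409) and 6.504 ± 5.64 (n = 1322). Neutrophil-marker cells held 0.411 ± 1.18 (n = 1014) and 4.22 ± 4.91 (n = 2236). The count of the erythroid list moved with these values. In the PHZ-treated spleen 65.4% of the cells of exactly 1 other list had 10 or more erythroid counts, and in the untreated spleen 5.08%.

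Hbb-bt in cells of other lists was therefore read at a fixed count of the erythroid list. With no erythroid count, C1q macrophage-marker cells held nearly the same mean in both spleens, 0.193 ± 0.614 untreated (n = 3136 cells) and 0.192 ± 0.657 after PHZ (n = 1028). The ratio was 0.995 (0.843 to 1.17, Poisson interval). T cell-marker cells without erythroid counts held 0.0682 ± 0.364 (n = 1364) and 0.0736 ± 0.290 (n = 258), a ratio of 1.08 (0.6225 to 1.78). In these classes Hbb-bt thus differed by less than counting error where no erythroid gene was counted, which does not show that the means are equal. These cells made up 17.55% of the C1q macrophage-marker cells untreated and 4.6% after PHZ, and 13.6% and 12.6% of the T cell-marker cells. Their median depth was 53 and 47 transcripts in the C1q macrophage-marker class and 60 and 47 in the T cell-marker class. Neutrophil-marker cells held 0.182 ± 0.455 (n = 209) and 0.432 ± 1.12 (n = 185), a ratio of 2.38 (1.597 to 3.598), and monocyte-marker cells 0.0892 ± 0.336 (n = 381) and 0.299 ± 0.701 (n = 87), a ratio of 3.349 (1.93 to 5.75). Stromal-marker cells lay between, with a ratio of 1.78 (0.9955 to 3.26). These intervals compare 2 sections and not the treatments.

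Hbb-bt was higher with each step of the erythroid count in most classes. From 0 to 1 or 2 counts, it was not higher in cartilage-marker cells of the marrow, with 0.0135 and 0.0133, in skeletal muscle-marker cells of the marrow, with 0.0857 and 0.0455, and in smooth muscle-marker cells of the untreated spleen, with 0.135 and 0.0962. C1q macrophage-marker cells of the untreated spleen held 0.193 Hbb-bt transcripts at 0 erythroid counts, 0.340 at 1 to 2, 1.20 at 3 to 9 and 7.85 at 10 or more. After PHZ these means were 0.192, 0.341, 1.55 and 9.98. Neutrophil-marker cells of the marrow held 0.377, 0.969, 2.06 and 8.67. Over all cells of exactly 1 other list, the means at 0 and at 10 or more erythroid counts were 0.148 and 9.52 in the marrow, 0.143 and 7.29 in the untreated and 0.207 and 9.40 in the PHZ-treated spleen. C1q macrophage-marker cells made up most of the cells with 10 or more counts in the spleens, 16819 of 21532 after PHZ and 1642 of 1861 untreated. Classes on both sides of the erythroid-marker cells were found at 10 or more counts. After PHZ, the mean was 9.98 in C1q macrophage-marker and 9.49 in megakaryocyte-marker cells, but 6.70 in neutrophil-marker, 6.235 in monocyte-marker and 5.52 in T cell-marker cells, against 7.68 in erythroid-marker cells. These counts come from cells of unequal depth, with a median of 141 transcripts in cells of other lists and 99 in erythroid-marker cells after PHZ. As a share of transcripts, Hbb-bt was lower in the pooled cells of other lists with 10 or more erythroid counts than in erythroid-marker cells in 3 sections. It made up 6.96% against 8.40% in the fetal liver, 7.84% against 9.27% in the marrow and 6.23% against 7.09% after PHZ. In the untreated spleen, 5.49% (5.40% to 5.58%) and 5.63% (5.32% to 5.95%) overlapped within counting error, and C1q macrophage-marker cells had 5.86% (5.76% to 5.96%). Single classes could also lie above, as endothelial-marker cells of the fetal liver did with 8.59% (8.49% to 8.70%) against 8.37% to 8.43% for erythroid-marker cells.

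**Figure D3:**
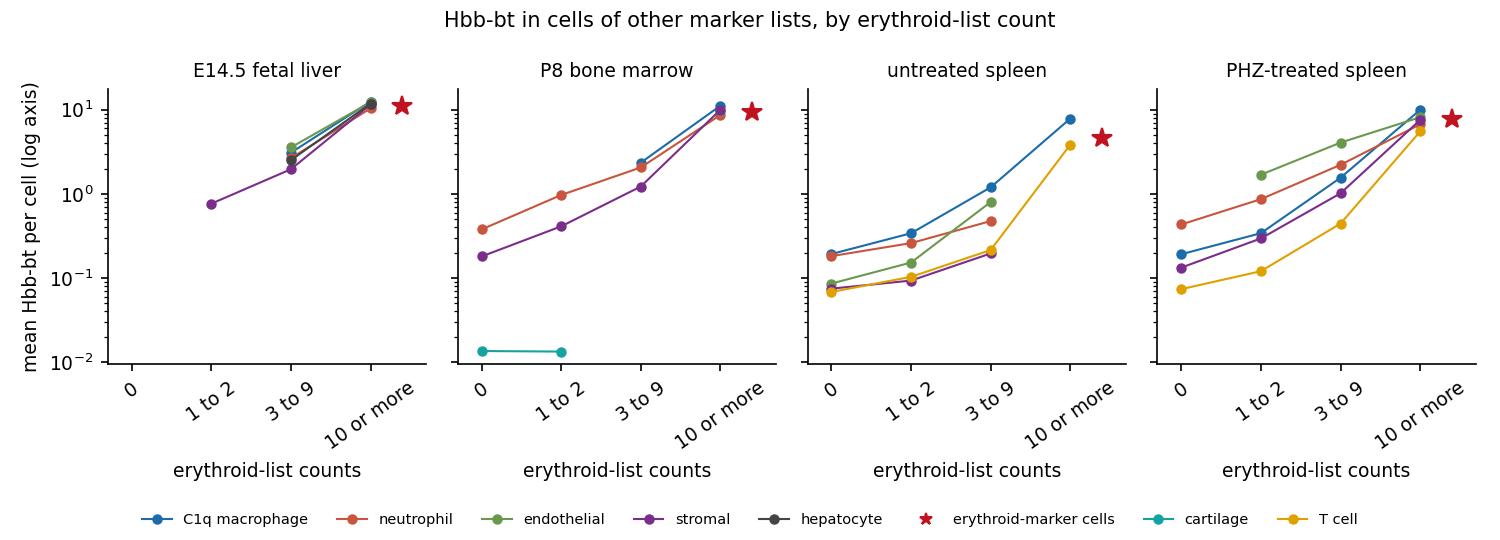
Mean Hbb-bt transcripts per cell, on a logarithmic axis, in cells of exactly 1 marker list other than the erythroid list, by the number of erythroid-list counts of the cell, 1 panel per section. Of the 13 lists the classes named in the legend are drawn where they had at least 50 cells, and the star is the mean of erythroid-marker cells. The drawn lines climb to the right except that of cartilage-marker cells, and C1q macrophage-marker cells lie above the star of their section at 10 or more counts. The means are not adjusted for depth. As a share of transcripts, these cells had 7.99% against 8.40% in erythroid-marker cells of the fetal liver. The shares were 8.68% against 9.27% in the marrow and 6.34% against 7.09% after PHZ. In the untreated spleen they were 5.86% against 5.63%, with overlapping intervals.

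Cells of other lists without erythroid counts held Hbb-bt more often where an erythroid-rich cell lay near, that is, a cell with 10 or more erythroid counts. In the untreated spleen, Hbb-bt was present in 25% of them with such a cell center within 10 µm (21.3% to 29.04%, n = 500 cells), in 16.6% at 10 to 20 µm, in 8.76% at 20 to 40 µm and in 4.89% beyond 40 µm (3.98% to 5.93%, n = 1985). The median depth was between 54 and 56 transcripts in all 4 ranges. In the PHZ-treated spleen the shares were 28.1%, 21.8%, 9.46% and 7.63%, and in the marrow 30.4%, 18.6%, 19.4% and 7.51%. The fall also appeared within C1q macrophage-marker cells. Of the C1q macrophage-marker cells without erythroid counts in the untreated spleen, 29.6% within 10 µm (n = 318 cells) and 6.81% beyond 40 µm (n = 896) held Hbb-bt. In the PHZ-treated spleen these shares were 28.4% (n = 95) and 7.25% (n = 386). Between 20 to 40 µm and beyond 40 µm, the 2 ranges with at least 50 cells, there was no fall in T cell-marker cells of the PHZ-treated spleen, with 2.33% (0.283% to 8.15%, n = 86) and 6.43% (2.98% to 11.85%, n = 140). Nor was there one in stromal-marker cells of the untreated spleen, with 4.21% (1.16% to 10.4%, n = 95) and 4.31% (1.41% to 9.77%, n = 116). In the marrow, the range beyond 40 µm held 1558 cells, of which 511 were cartilage-marker cells, so the classes differed between ranges there. The parts of free RNA and of outlines that reach over neighboring cells in these values were not tested.

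**Figure D4:**
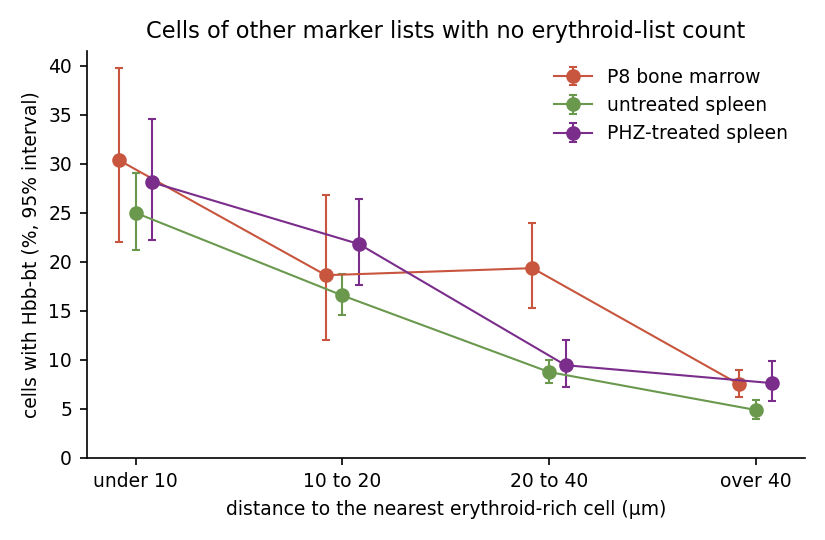
Share of cells with Hbb-bt in percent, with exact binomial intervals at 95%, among cells of exactly 1 other marker list that had no erythroid-list count, by the distance to the nearest cell with 10 or more erythroid-list counts. In all 3 sections the share is highest under 10 µm and lowest over 40 µm, falling from 25% to 4.89% in the untreated spleen. The fetal liver had too few such cells.

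A small share of Hbb-bt lay outside cells, and in 3 of the sections this share was well above the median of panel genes. At a quality score of at least 20, 6.17% of the Hbb-bt transcripts of the fetal liver lay in no cell (6.13% to 6.21%, of 1500753 transcripts). This was 11th of 293 genes with at least 1000 transcripts, whose median was 1.49%. The share was 4.52% in the marrow (4.45% to 4.59%), 118th of 256 genes with a median of 4.12%. It was 2.695% in the untreated spleen (2.59% to 2.80%), 13th of 293 with a median of 0.454%, and 2.76% in the PHZ-treated spleen (2.71% to 2.80%), 33rd of 276 with a median of 1.30%. Hbb-bt was thus near the middle of the panel in the marrow and among the higher genes in the other sections.

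The genes around Hbb-bt in this order differed by tissue. In the fetal liver, Pck1 with 32.4%, Hrg with 13.7% and Trf with 11.7% were highest, and Upk3b with 6.23% and Stfa2l1 with 6.14% were the neighbors of Hbb-bt. In the marrow, the collagen genes Col1a1, Col1a2 and Col2a1 were highest with 46.1%, 40.7% and 38.0%, and Satb1 and C1qb stood next to Hbb-bt. In the untreated spleen, Car2 was among the 3 highest with 5.72%, and it had the third highest r with Hbb-bt there. Upk3b stood just above Hbb-bt with 2.93% and Slc4a1 just below it with 2.67% (2.51% to 2.83%), and Hbb-bt and Slc4a1 differed by less than counting error. After PHZ, Ifng, Krt19 and Chl1 were highest with 11.9%, 11.2% and 8.33%, and Sfrp1 and Pmp22 stood next to Hbb-bt.

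The ratio of Hbb-bt to Slc4a1 was highest outside cells in the fetal liver, the marrow and the PHZ-treated spleen. The fetal liver had 2.31 Hbb-bt transcripts for each of Slc4a1 outside cells, against 0.992 over nuclei and 1.14 in cells but outside nuclei. In the marrow these ratios were 1.48, 0.962 and 1.25, in the PHZ-treated spleen 1.41, 0.927 and 1.315, and in the untreated spleen 2.40, 2.06 and 2.73. In each section the ratio was lowest over nuclei. Of all gene transcripts outside cells, Hbb-bt made up 15.15% in the fetal liver, where it was 6.72% of those in cells. The share was also higher outside than inside in the untreated spleen, with 4.00% and 0.864%, and in the PHZ-treated spleen, with 7.215% and 4.49%. The marrow went the other way, with 1.93% of those outside and 4.83% of those inside. There, 10.6% of the transcripts of all genes lay outside cells, against 0.595% to 2.83% in the other sections.

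Most transcripts outside cells lay far from any nucleus. Since cells are expanded nuclei, transcripts close to a nucleus are counted as inside, and the distances are read only against those of the other genes. The median distance of such Hbb-bt transcripts to the nearest nucleus was 98.8 µm in the fetal liver, 73.2 µm in the marrow, 143 µm in the untreated spleen and 118 µm in the PHZ-treated spleen. Over 50 µm away lay 76.2%, 63.1%, 84.1% and 77.2% of them, and of all gene transcripts outside cells 75.6%, 61.4%, 83.6% and 76.8%. Hbb-bt outside cells was thus spread over distances like those of the rest of the panel. Whether these areas are tissue without detected nuclei or slide beside the tissue was not tested, so the share outside cells may include both.

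Inside cells, Hbb-bt lay both over and outside the nucleus, and its rank in the panel differed between tissues. The share outside nuclei was 43.0% in the fetal liver (42.9% to 43.1%), 43.3% in the marrow (43.1% to 43.4%), 53.9% in the untreated spleen (53.5% to 54.2%) and 52.3% in the PHZ-treated spleen (52.1% to 52.4%). It was 169th of 293 genes in the fetal liver, where the median of genes was 45.1%, and 179th of 256 in the marrow with a median of 52.1%. In the untreated spleen it was 31st of 293 with a median of 41.1%, and in the PHZ-treated spleen 117th of 276 with a median of 48.9%. Slc4a1 had the lower share in all 4 sections, with 39.7%, 36.9%, 46.9% and 43.6%. A section is 5 µm thick, so a transcript above or below a nucleus counts as over it.

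The genes at the top of this order differed by tissue. They were Krt19, Cryab and Upk3b in the fetal liver with 60.2% to 63.0%, and Cox8b, Actn3 and Pvalb in the marrow with 83.9% to 87.4%. The untreated spleen had Car3, Retn and Pck1 with 77.4% to 83.7%, and the PHZ-treated spleen Cnn1, Ppbp and Krt19 with 79.0% to 80.2%. The neighbors of Hbb-bt were Il18 and Aspn in the fetal liver, Dnase1l3 and Car2 in the marrow, Retnla and Vcam1 in the untreated spleen, and Ccl2 and Stmn1 in the PHZ-treated spleen.

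**Figure D5:**
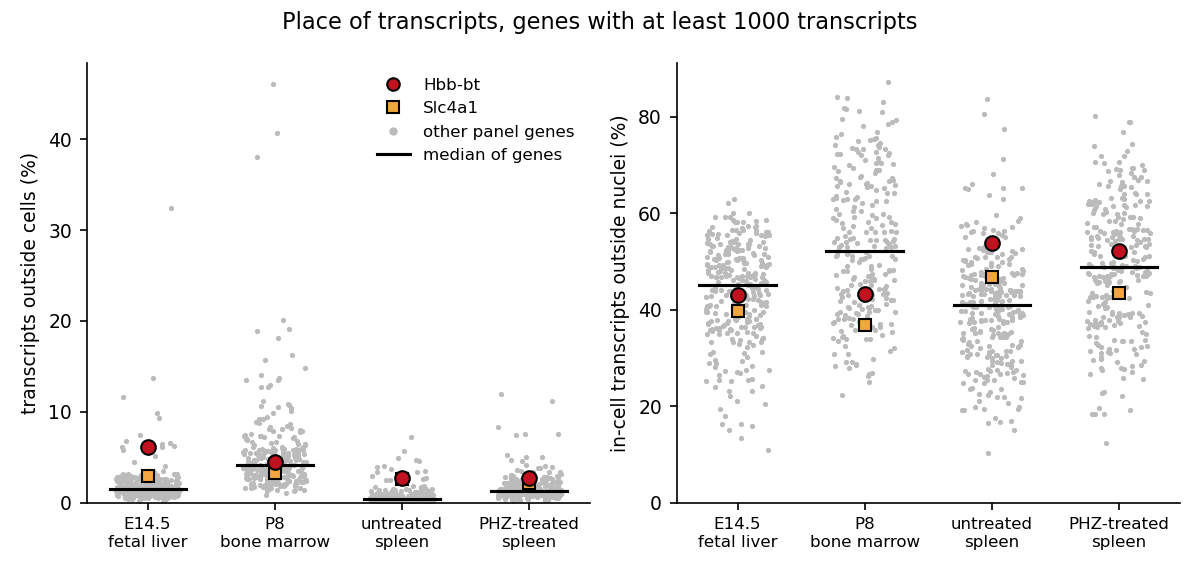
Share of transcripts outside cells (left) and share of in-cell transcripts outside nuclei (right), in percent, for each gene with at least 1000 transcripts in the 4 sections. Grey dots are panel genes, black lines their medians, red circles Hbb-bt and orange squares Slc4a1. Hbb-bt stands above the median on the left, with 6.17% against 1.49% in the fetal liver and 2.695% against 0.454% in the untreated spleen, and above Slc4a1 in both panels, though by less than counting error outside cells of the untreated spleen.

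The place of Hbb-bt differed between classes. In erythroid-marker cells 39.7% of it lay outside nuclei in the fetal liver (39.5% to 39.9%), 37.4% in the marrow (37.05% to 37.7%), 40.9% in the untreated spleen (38.0% to 43.7%) and 46.9% in the PHZ-treated spleen (46.66% to 47.15%). All genes together lay outside nuclei in 38.2%, 34.3%, 35.8% and 41.4% of cases in these cells. Endothelial-marker cells had a higher share of Hbb-bt outside nuclei, 46.3%, 49.1%, 52.2% and 66.2% in this order, and a higher share of all genes, 44.0%, 43.8%, 38.5% and 55.95%. In cells of other lists without erythroid counts, 76.2% of the Hbb-bt lay outside nuclei in the marrow (71.1% to 80.8%, of 315 transcripts) and 72.1% of all transcripts did. In the spleens these shares were 45.4% (42.0% to 48.8%) against 39.85% untreated, and 58.5% (53.5% to 63.4%) against 47.2% after PHZ. Hbb-bt lay outside nuclei more often in these cells than in erythroid-marker cells in the marrow and the PHZ-treated spleen, whereas the intervals overlap in the untreated spleen.

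Between the spleens, Hbb-bt was higher after PHZ in cell number and in level. On the CPM scale, which sets the gene counts of each section to the same total, it stood at 44902 in the PHZ-treated spleen (44779 to 45025) and 8644 in the untreated spleen (8587.5 to 8701), a ratio of 5.195 (5.16 to 5.23, Poisson interval). Of the panel genes, 61 or 12.8% were at least 2-fold higher and 134 or 28.1% at least 2-fold lower after PHZ, and Hbb-bt stood 29th by its ratio. With 1 section of each kind, the ratio compares 2 spleens and has no replicate check.

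The erythroid list, chosen with earlier results of these data known, moved in the same direction. Of its 16 genes, 14 were at least 2-fold higher in the PHZ-treated spleen, none was 2-fold lower, and the median ratio was 10.1, against 0.728 over all genes. The highest was Plek2 with a ratio of 75.4 (70.4 to 80.8), from 80.7 to 6083 CPM. Rhd followed with 24.0, and among the regulators Hemgn had 18.6, Klf1 17.9, Gata1 16.3 and Epor 10.1. Slc4a1 had 11.2 (11.1 to 11.4). The genes of heme and iron lay at 6.07 for Fech, 3.99 for Slc25a37, 3.19 for Tfrc and 2.57 for Isca1. Slc14a1 with 1.95 and Selenbp1 with 1.96 stayed below 2-fold. The ratio of Hbb-bt thus lay below the median of the list and below that of Slc4a1.

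In erythroid-marker cells alone, the mean count of Hbb-bt was 1.68 times as high in the PHZ-treated as in the untreated spleen. These counts come from cells of unequal depth, with a median of 99 transcripts after PHZ and 72 untreated. Hbb-bt made up 7.09% and 5.63% of the transcripts of these cells. There were 20264 erythroid-marker cells after PHZ against 258 untreated. As a share of all cells these were 21.45% and 0.238%, a ratio of 90.04 (79.6 to 102). This ratio rests on the gate, which leaves out every cell that passes another list, and the 258 cells held 1.315% of the Hbb-bt in cells of the untreated spleen. Over all cells with 10 or more erythroid counts, whatever other list they passed, there were 55559 against 6425, or 58.8% and 5.93% of cells, a ratio of 9.91 (9.66 to 10.2). Their mean Hbb-bt was 8.60 ± 5.74 after PHZ and 6.51 ± 5.64 untreated, a ratio of 1.32 (1.31 to 1.33), and they held 93.1% and 46.7% of the Hbb-bt in cells. Of their transcripts, Hbb-bt made up 5.91% and 3.73%, so the size of the difference depended on whether counts or shares were read. The median count of the erythroid list in erythroid-marker cells was 13 in the untreated spleen and 49 in the PHZ-treated spleen, and its part in the difference was not tested.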

How the data were processed

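Xenium in situ data of 4 mouse sections were analysed, 1 per condition. The authors deposited, for each section, raw counts of transcripts per gene and cell, without normalization, and a list of decoded molecules, each with its position and its quality score in the deposited tables. Per the file headers, the files were made with Xenium Onboard Analysis 1.7.1.0, whereas the paper names Space Ranger. Counts per cell, rebuilt from transcripts at a score of at least 20, gave the deposited total in all 117329, 52594, 108338 and 94582 cells.

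Cells with at least 5 detected genes were kept. Shares have exact binomial intervals, and counts and ratios of counts exact Poisson intervals, at 95%. Pearson's r used log(1 + 5000 × count / total without Hbb-bt). Thinning to 50 transcripts was calculated from the hypergeometric distribution. Named were Hbb-bt, Slc4a1, the 16 genes of the erythroid list, the 5 highest and 2 lowest correlations among genes in at least 1% of cells, and for each place the 3 highest genes and the neighbors of Hbb-bt, except some genes whose values are not reported here. Kit, and the splits by Kit, nucleus area, distance and tile, were added after values were seen. The gene, the lists and the tests were chosen with earlier results of these data known. Samples were grouped by their labels. The sections with the larger panel were not used beyond their gene lists, nor were outlines and cell groups of the instrument.

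The alternatives were other minimums for cells and quality scores, transcripts over nuclei only, rank correlation, other gates and other totals. Median depth was 84 to 167 transcripts per cell. Python 3.11.15, NumPy 2.4.6, SciPy 1.17.1, pandas 2.3.3, PyArrow 21.0.0 and Matplotlib 3.10.9 were used, and the calculations were tested on simulated data.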

Additional observations from a re-analysis of the deposited data

How the results depend on the processing

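No paired analysis was possible because each condition had 1 section. For the same reason no replicate could be left out and no difference between conditions has a test. Of 53 alternative values, 19 stayed within the counting interval of the main value, or within 0.05 for a correlation, and 34 moved beyond it. With transcripts over the nucleus alone, the share of cells with Hbb-bt fell to 95.9% in the fetal liver, 63.8% in the marrow, 16.7% in the untreated spleen and 59.7% in the PHZ-treated spleen. After thinning it was 93.1%, 69.1%, 19.1% and 68.9%. With at least 20 transcripts per cell it was 75.7% in the marrow and 72.6% in the PHZ-treated spleen. At a quality score of at least 30, the share outside cells was 6.10%, 4.19%, 2.52% and 2.96%, and with no minimum 2.62% in the PHZ-treated spleen. The share outside nuclei at a score of 30 was 42.5% in the fetal liver, 43.0% in the marrow and 51.2% in the PHZ-treated spleen, and without a minimum 43.15%, 43.6% and 52.7%. Spearman's rho with Slc4a1 on raw counts was 0.715 in the fetal liver, 0.89 in the marrow and 0.84 in the PHZ-treated spleen. Among cells with a count of Slc4a1, an alternative chosen after seeing the data, Pearson's r fell to 0.63 in the marrow, 0.37 in the untreated spleen and 0.47 in the PHZ-treated spleen, with 0.52 in the fetal liver, so part of the correlation rests on cells without Slc4a1. With at least 3 counts over at least 2 genes as the gate, the mean Hbb-bt of cells of other lists without erythroid counts was 0.117 in the marrow and 0.126 in the untreated spleen. The ratio of Hbb-bt between the spleens was 5.39 with a total without Hbb-bt, 6.58 as counts per cell and 5.14 over all transcripts. Over all cells with at least 10 counts of the erythroid list, another choice made after seeing the data, the ratio of their share of cells was 9.91 in place of 90.04 for erythroid-marker cells, and that of their mean Hbb-bt was 1.32 in place of 1.68. These means of Hbb-bt were counts not adjusted for depth. The cause of these moves was not tested. Depth limits the shares of cells with Hbb-bt, since a shallow cell can hold the gene without a counted transcript.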

Other observations

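Hbb-bt was decoded with high quality scores. In the fetal liver 2.36% of its transcripts fell below a score of 20, the lowest of 293 genes, whose median was 25.4%. The share was 6.39% in the marrow, 254th of 256 genes with a median of 28.3%, 0.795% in the untreated spleen, 289th of 293 with a median of 12.4%, and 7.47% in the PHZ-treated spleen, 267th of 276 with a median of 31.6%. For Slc4a1 these shares were 15.2%, 21.03%, 12.45% and 27.1%.

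The 1462 cells of the fetal liver without Hbb-bt made up the smallest group without the gene in any section, against 12901 cells in the marrow, 26321 in the PHZ-treated spleen and 82110 in the untreated spleen. Tile means of Hbb-bt and Slc4a1 had a Pearson's r of 0.98 in the marrow, 0.96 in the PHZ-treated spleen, 0.92 in the untreated spleen and 0.82 in the fetal liver, over tiles that share 1 section and its depth.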
